A study of Mus musculus with 12 samples.

Results

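The 150 autosomal long intergenic noncoding RNAs (lincRNAs) of the deposited expression tables are described here, out of 12441 genes in all. They are every gene that the authors' tables give the gene type lincRNA and that lies on an autosome, so no measured value chose them, and 4 further lincRNAs lie on the X chromosome. The libraries were made from mouse bone marrow-derived macrophages, cells grown from bone marrow in medium conditioned by L929 cells, which supplies the macrophage growth factor. The 4 groups, with 3 libraries each, were wild type (WT) and COQ6 D316Y macrophages, each kept without stimulus or given lipopolysaccharide (LPS) at 100 ng/mL for 24 h. LPS is a bacterial cell wall component sensed by Toll-like receptor 4. COQ6 is a monooxygenase of coenzyme Q synthesis, and the series title describes the D316Y change as homozygous. Ages of the mice, the number of animals and whether replicates came from separate animals or cultures are not given in the labels, so the p-values reflect the spread among these libraries alone.

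lincRNAs are RNA polymerase II transcripts from loci between protein-coding genes. They are mostly spliced, capped and polyadenylated like mRNAs but hold no long conserved reading frame, and many stay in the nucleus. Some act as scaffolds of nuclear bodies, some affect the transcription of a neighbouring gene, some are precursors of small RNAs, and for most no function is known. In macrophages a set of them is induced by Toll-like receptor signalling, among them lincRNA-Cox2 (Ptgs2os2), AW112010 and the microRNA host Mir155hg.

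Each library had 32.8 to 47.2 M reads in the table, and all 8 macrophage markers of a fixed list were in the table, at a summed level of between 32532 and 70806 CPM (read counts scaled to the effective library size). Markers of neutrophils (4 of 8 in the table) summed to between 5.39 and 55.1 CPM and those of dendritic cells (3 of 5 in the table) to between 2.43 and 22.0 CPM. Both sums were higher in all LPS libraries than in any unstimulated one of the same genotype, as were the macrophage and B cell sums. Of the neutrophil and dendritic markers, S100a8, Camp, Xcr1 and Ccr7 rose in this way. Ngp was lower in all LPS libraries than in any unstimulated one of the same genotype, and S100a9 and Siglech overlapped. Of the macrophage markers, Adgre1, Itgam, Fcgr1, Lyz2 and Cd14 were higher in all LPS libraries of both genotypes. Cd68 was lower in all of them, Csf1r overlapped, and Mertk overlapped in WT and was higher in D316Y. B cell, T cell and stromal markers summed to at most 9.20, 1.23 and 2.76 CPM, and no marker of natural killer cells, erythroid cells or mast cells was in the table. The part of these cells in the lincRNA values was not tested.

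The unstimulated replicate 1 libraries stood apart in their lincRNAs. The median member's deviation from its mean over the 12 libraries was -0.94 (log2) in unstimulated WT replicate 1, against 0.37 and 0.14 in replicates 2 and 3. The corresponding D316Y medians were -0.23, 0.65 and 0.46. Of the 132 members that reached 0 log2 CPM on average in some group, 105 were lowest in replicate 1 of unstimulated WT (79.5%, against 37.3% of all genes) and 106 in that of D316Y (80.3%, against 39.7%). Replicate 1 was lowest for 72 members in WT with LPS (54.5%, against 33.7% of all genes) and for 25 in D316Y with LPS (18.9%, against 32.2%). The share was below that of all genes in D316Y with LPS alone, so the replicate number did not mark the same deviation in every group. Antisense RNAs and processed transcripts were low in the same libraries, while the median of protein-coding genes stayed between -0.04 and 0.11. Mitochondrially encoded genes took 0.449% and 0.949% of the reads of the unstimulated WT and D316Y replicate 1, against 1.97 to 2.97% in the other 4 unstimulated libraries. Whether that share and the lincRNA level have a common source was not tested.

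**Figure D1:**
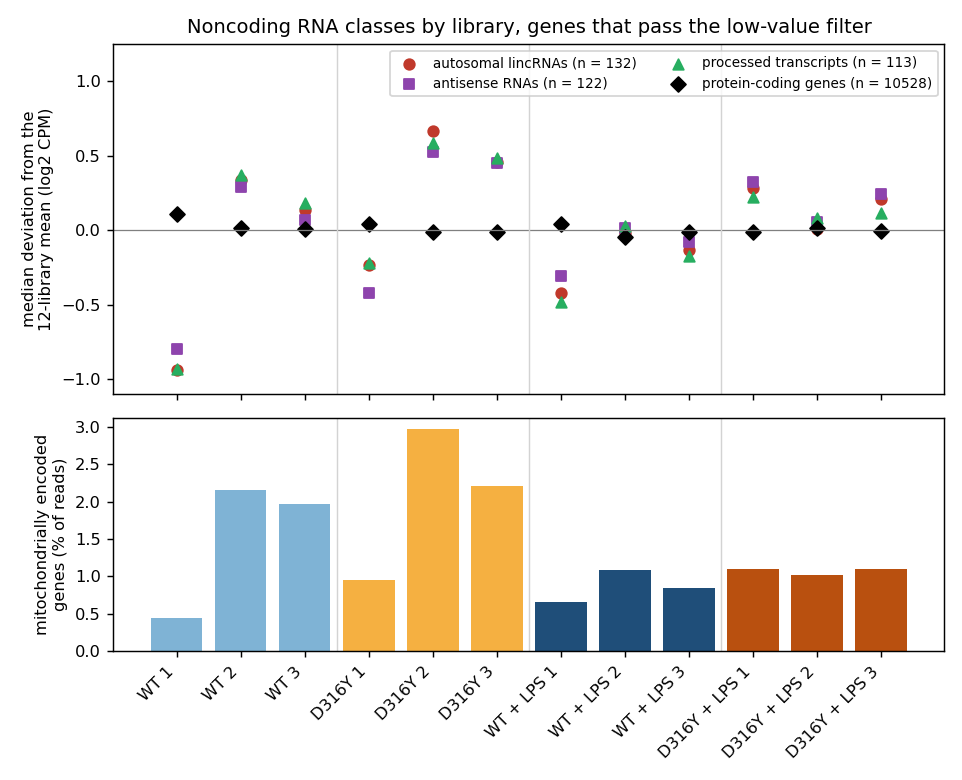
The upper panel plots, for each of the 12 libraries, the median deviation of 4 gene classes from each gene's 12-library mean (log2 CPM, genes averaging 0 or more in some group), and the lower panel the percent of reads from mitochondrially encoded genes. The 3 noncoding classes are lowest in unstimulated WT replicate 1, where lincRNAs are at -0.94 and protein-coding genes at 0.11.

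Replicate 1 did not lower every lincRNA. The unstimulated replicate 1 was below the mean of replicates 2 and 3 by over 1 (log2) in both genotypes for 53 of the 150 members, and within 0.5 of it in both for 20. Malat1, a nuclear RNA of the speckles in which splicing factors gather, was lower by -1.75 in WT and -1.70 in D316Y, and Lncpint, a p53-induced lincRNA, by -3.71 and -1.44. For 1810058I24Rik the same values were 0.11 and 0.03, for AU020206 0.02 and -0.13 and for Gm28875 0.23 and 0.50. The 24 members with a single exon block had a median shift, averaged over both genotypes, of -1.03, and the 126 with more blocks one of -0.96.

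Most lincRNAs were expressed at low levels. In CPM per kilobase of exon, the scale used here to compare levels between genes, the median member was at 0.897 over the 12 libraries and the median protein-coding gene at 2.86. Above 10 per kilobase were 13 members, below 1 were 78, and 42 had under 100 reads in every library. The low-value filter of the tests was passed in some group by 132 members, while 18 were below it in every group and 5 had no reads in at least 1 library. Their merged exons were also shorter, with a median of 2385.5 bases against 4465 for protein-coding genes. Autosomal lincRNAs took 1.14 to 2.04% of all reads in the table, and 4 genes, Gm42418, Malat1, Gm10076 and AW112010, held 92.4 to 96.4% of them.

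The most abundant of these is better read with its sequence context. Gm42418, on chromosome 17 (39846958 to 39848788, plus strand, GENCODE M21 on GRCm38), was at a mean of 5716 per kilobase. It overlaps the genes AY036118 and CT010467.1 on the other strand, and the CT010467.1 overlap shows as 67.9% of its length at 100% identity. It also carries ribosomal RNA precursor sequence, so its reads cannot be assigned to a lincRNA with certainty. Gm10076, at 1346 per kilobase, is 99.5% identical to Rpl41, a ribosomal protein mRNA, over its whole transcript. In all, 13 members have a near-identical match in another gene (at least 97% identity over at least 50% of a transcript, either strand). For several, such as Gm42418, C030034L19Rik and Gm26538, the closest match is a gene that overlaps the member, not a copy elsewhere. Exons of another gene are overlapped by 58 members, 48 of them on the opposite strand, so both counts share members. How the authors' counting treated strand and reads with several matches is not given in the sources used here.

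After these, as means over all 12 libraries, came AW112010 with 588 per kilobase, Malat1 with 396, the microRNA host Mir142hg with 46.0, Tmem250-ps with 41.9, the small nucleolar RNA host Snhg6 with 32.8 and 1810058I24Rik with 30.4. Malat1 was at 130, 417 and 463 per kilobase in unstimulated WT and at 171, 571 and 540 in unstimulated D316Y. With LPS it was at 220, 496 and 276 in WT and at 552, 458 and 458 in D316Y. AW112010 was at 28.9 to 77.8 without LPS, below Malat1 in all 6 libraries, and at 636 to 1450 with LPS, above it in all 6. All 4 groups of Malat1 overlapped, and replicate 1 was the lowest of its group in 3 of the 4 groups. 1810058I24Rik, in contrast, kept within 33.8 and 37.5 per kilobase in all 6 unstimulated libraries and within 22.6 and 28.1 in all 6 with LPS.

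LPS changed lincRNAs in both directions in both genotypes. In WT, 112 members passed the low-value filter (an average of 0 log2 CPM or more in either compared group) and 29 passed limma's test at an adjusted p under 0.05. LPS raised 13 of them (11.6% of those tested, against 18.1% of all genes) and lowered 16 (14.3%, against 19%). In D316Y, 130 were tested and 40 passed, 19 higher (14.6%, against 19.4%) and 21 lower (16.2%, against 19%). Passing the filter only through the higher group favours a difference in a member without forcing one. Without the filter 34 of all 150 passed in WT (15 higher) and 42 in D316Y (21 higher), and the share of all genes without it is not given here. The count of lower lincRNAs was larger when both unstimulated replicate 1 libraries were left out. Without both of them 57 members passed in WT (13 higher, 44 lower) and 62 in D316Y (17 higher, 45 lower). These are 46.7% and 46.3% of those then tested, against 41.9% and 43.9% of all genes. All 16 WT falls and 20 of the 21 D316Y falls called with all libraries were kept. Without WT replicate 1 alone 48 passed in WT (11 higher).

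The 2 LPS contrasts share no library, though 1 fit gave them a common estimate of the spread, and 12 members rose and 13 fell in both. These are 86.2% of the WT calls and 62.5% of the D316Y calls, against 83.2% and 79.6% over all genes. None was called in opposite directions, and neither was any other gene of the series. Over all alternatives run, 16 members passed in both genotypes every time: 1110002J07Rik, A930003A15Rik, AW112010, Bvht, Dubr, Gm11110, Gm14005 and Gm27167 among those that rose, and 1810058I24Rik, 2610035D17Rik, 2700038G22Rik, AU020206, Gm13391, Gm13710, Gm14461 and Gm28875 among those that fell. This was not counted over all genes, so it does not set lincRNAs apart. Of the members called in both genotypes, A930003A15Rik, Gm27167, Mir155hg, Gm11707 and Gm19705 passed the main filter through their LPS libraries alone. Gm29291, C030034L19Rik and Gm26912 passed it through their unstimulated ones, as did 2700038G22Rik, Gm13391 and Gm14461 in WT. Among falls called in a single genotype, the same holds for Gm10419 in WT. In D316Y it holds for Gm568, Gm26541, 4933404O12Rik, A530017D24Rik and Mir17hg. The direction of these calls was thus favoured by the filter.

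**Figure D2:**
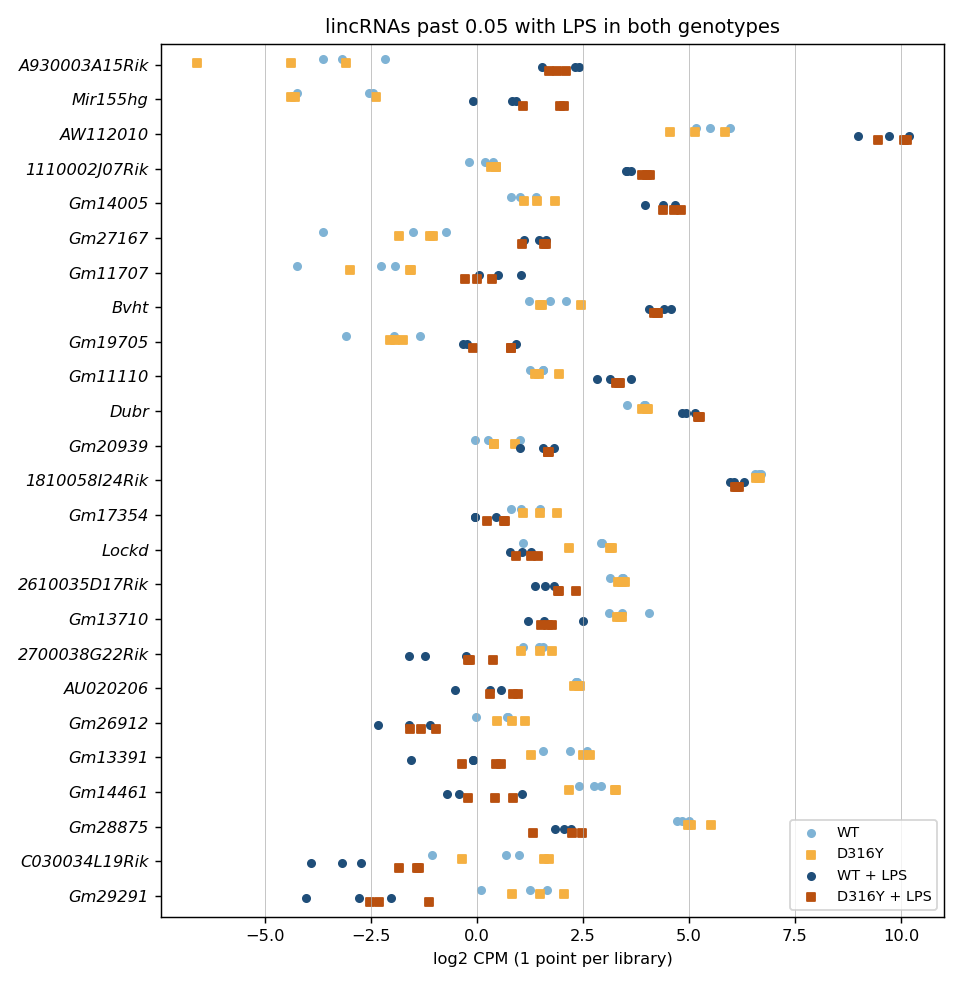
Each row is 1 of the 25 lincRNAs past 0.05 with LPS in both genotypes, ordered by response, and each point 1 library (log2 CPM, 3 per group, circles WT and squares D316Y, dark colours with LPS). A930003A15Rik moved from between -6.61 and -2.18 without LPS to between 1.53 and 2.40 with it, and Gm28875 from between 4.72 and 5.51 to between 1.31 and 2.49.

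AW112010, on chromosome 19 (11047612 to 11055808, minus strand, 4 exon blocks), was the most abundant of the induced lincRNAs. It is known as an LPS-induced transcript from which macrophages translate a short noncanonical reading frame that takes part in the mucosal immune response. Unstimulated WT was at 5.17, 5.97 and 5.49 log2 CPM and unstimulated D316Y at 4.54, 5.13 and 5.86. With LPS the values were 9.0, 10.19 and 9.71 in WT and 10.14, 10.06 and 9.47 in D316Y. No LPS library overlapped an unstimulated one. The log2 rise was 4.09 (SE 0.35, limma adjusted p = 9.94e-07) in WT and 4.71 (SE 0.35, adjusted p = 2.57e-07) in D316Y.

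A930003A15Rik had the largest rise of the called members, 5.08 (SE 0.72, limma adjusted p = 9.03e-05) in WT and 6.59 (SE 0.73, adjusted p = 9.76e-06) in D316Y. It had 4, 10 and 4 reads in unstimulated WT and 2, 6 and 0 in unstimulated D316Y, so these folds depend on the 0.5 reads that the authors' scale adds. LPS brought it to 124, 200 and 203 reads in WT libraries and 118, 161 and 119 in D316Y libraries. The gene passed the filter through its LPS libraries alone.

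1110002J07Rik had the smallest adjusted p in both genotypes. Its 6 unstimulated libraries lay between -0.20 and 0.45 log2 CPM, and LPS took it to 3.63, 3.52 and 3.55 in WT and to 4.08, 4.00 and 3.88 in D316Y. The rise was 3.45 (SE 0.18, limma adjusted p = 9.61e-09) in WT and 3.59 (SE 0.18, adjusted p = 6.66e-09) in D316Y. Replicates of this gene were close to each other in every group.

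5 members are on the list of lncRNAs described in macrophages or immune cells, which was chosen with earlier results of these data known. In WT 3 of them were tested and 3 rose, and in D316Y 5 were tested, of which 4 rose and 1 fell, beside 18.1% and 19.4% of all genes that rose. Mir155hg and Ptgs2os2 passed the filter through their LPS libraries alone, so a higher level with LPS was built into their being tested. Gm14005, known as Morrbid, a lncRNA of short-lived myeloid cells that restrains its neighbour Bcl2l11 (the pro-apoptotic BIM), had 0.80, 1.39 and 1.00 log2 CPM in unstimulated WT and 3.97, 4.68 and 4.38 with LPS. In D316Y it went from 1.11, 1.41 and 1.83 to 4.82, 4.64 and 4.38. Its groups did not overlap, and the rise was 3.28 (SE 0.24, limma adjusted p = 2.22e-07) in WT and 3.16 (SE 0.24, adjusted p = 2.7e-07) in D316Y.

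Mir155hg is the host gene of miR-155, a microRNA of inflammatory activation. It had 9, 2 and 7 reads in unstimulated WT and 2, 10 and 2 in D316Y, and LPS brought it to 40, 71 and 72 in WT libraries and 151, 147 and 69 in D316Y libraries. The rise was 3.63 (SE 0.64, limma adjusted p = 0.000564) in WT and 5.39 (SE 0.66, adjusted p = 2.32e-05) in D316Y. Ptgs2os2, the lincRNA-Cox2 that affects induction of its neighbour Ptgs2 (cyclooxygenase 2), had 4, 8 and 6 reads in unstimulated WT and 30, 35 and 45 with LPS, and was too low in WT for the filter. In D316Y it had 14, 21 and 25 reads without LPS and 56, 32 and 25 with it, a rise of 1.4 (SE 0.49, limma adjusted p = 0.0375) after scaling to library size. The gene was tested in 11 of 13 alternatives and called in 7. Without D316Y replicate 1 with LPS it fell below the filter and was not tested. The call was lost without unstimulated D316Y replicate 1, alone or with that of WT (1.17), without replicate 2 (1.41) and without replicate 2 with LPS (1.52). Mir17hg, the host of the miR-17-92 cluster, was the member that fell, by 2.02 (SE 0.52, limma adjusted p = 0.00694) in D316Y, and was below the filter in WT. In D316Y it passed the filter through its unstimulated libraries alone.

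Promoter sequences of these genes were read from RefSeq (GRCm38.p6), which held 68 of the 150 members, each as 250 bases before and 50 after the RefSeq start. Shown are AW112010, 1110002J07Rik and A930003A15Rik, which rose strongly, Ptgs2os2, whose called rise in D316Y alone was smaller, and 2610035D17Rik, which fell. Capitals mark a match to 1 of the 4 motifs searched on both strands: the NF-kB consensus, the interferon-response core (GAAA, any pair of bases, GAAA), the AP-1 site TGANTCA and the TATA box TATAAA. The RefSeq start of AW112010 lies 5242 bases inside the GENCODE model.
AW112010 (chr19:11050517-11050816, minus strand): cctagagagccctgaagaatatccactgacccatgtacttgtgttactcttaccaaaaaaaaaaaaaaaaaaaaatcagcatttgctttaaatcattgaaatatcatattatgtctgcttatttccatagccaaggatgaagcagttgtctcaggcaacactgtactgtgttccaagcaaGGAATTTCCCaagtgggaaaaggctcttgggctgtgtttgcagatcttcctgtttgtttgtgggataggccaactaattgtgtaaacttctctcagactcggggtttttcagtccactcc
1110002J07Rik (chr10:66920335-66920634, minus strand): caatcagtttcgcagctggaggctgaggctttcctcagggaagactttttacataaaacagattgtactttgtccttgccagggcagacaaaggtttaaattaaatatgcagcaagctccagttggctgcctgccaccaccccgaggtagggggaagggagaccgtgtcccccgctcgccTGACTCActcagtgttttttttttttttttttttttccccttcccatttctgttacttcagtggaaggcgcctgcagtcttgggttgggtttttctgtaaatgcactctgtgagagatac
Ptgs2os2 (chr1:150164899-150165198, minus strand): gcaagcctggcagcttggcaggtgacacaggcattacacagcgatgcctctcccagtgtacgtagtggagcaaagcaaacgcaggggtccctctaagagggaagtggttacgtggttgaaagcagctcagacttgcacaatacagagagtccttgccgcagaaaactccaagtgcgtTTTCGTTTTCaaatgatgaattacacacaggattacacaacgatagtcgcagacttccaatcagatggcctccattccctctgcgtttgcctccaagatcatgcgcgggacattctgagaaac
A930003A15Rik (chr16:19884225-19884524, minus strand): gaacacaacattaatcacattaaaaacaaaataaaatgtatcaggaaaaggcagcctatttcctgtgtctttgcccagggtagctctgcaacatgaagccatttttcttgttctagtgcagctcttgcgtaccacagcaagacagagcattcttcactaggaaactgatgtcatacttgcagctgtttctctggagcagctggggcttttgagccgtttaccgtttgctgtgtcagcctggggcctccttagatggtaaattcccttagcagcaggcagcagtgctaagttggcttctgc
2610035D17Rik (chr11:113201789-113202088, minus strand): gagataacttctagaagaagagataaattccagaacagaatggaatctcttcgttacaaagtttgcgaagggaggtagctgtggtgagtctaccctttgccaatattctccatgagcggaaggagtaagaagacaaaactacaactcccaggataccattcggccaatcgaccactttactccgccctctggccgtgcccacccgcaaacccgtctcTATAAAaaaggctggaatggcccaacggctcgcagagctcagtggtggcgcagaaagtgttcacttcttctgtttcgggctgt

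AW112010 had an NF-kB match whose first base lies at -70 from the start, 1110002J07Rik an AP-1 match at -70, Ptgs2os2 an interferon-response core at -73 and 2610035D17Rik a TATA box at -33, while A930003A15Rik had none of the 4. Among the 68 members with a promoter, 5 held the NF-kB consensus, 2 the interferon-response core, 5 the AP-1 site and 5 the TATA box. Among all 31387 autosomal promoters of the same length, 8.55%, 3.46%, 7.85% and 13.6% did. A match is only a stretch of letters, and binding was not measured.

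Other induced members were less abundant or rose less. Bvht (Braveheart, known from cardiac lineage commitment) rose by 2.67 (SE 0.27, limma adjusted p = 4.91e-06) in WT and 2.40 (SE 0.27, adjusted p = 1.12e-05) in D316Y, from between 1.21 and 2.46 to between 4.06 and 4.58 log2 CPM. Dubr was one of the more highly expressed, at 3.53 to 4.03 log2 CPM unstimulated and 4.84 to 5.27 with LPS, and rose by 1.16 (SE 0.14) and 1.27 (SE 0.14). Gm27167 rose by 3.35 (SE 0.58) in WT and 2.76 (SE 0.58) in D316Y, Gm19705 by 2.25 (SE 0.51) and 2.42 (SE 0.53), and Gm11110, which overlaps exons of Tnfsf9 on the other strand, by 1.74 (SE 0.22) and 1.75 (SE 0.22). The remaining members that rose in both were Gm11707 and Gm20939. Gm27167, Gm19705 and Gm11707 passed the filter through their LPS libraries alone, so a higher level with LPS was built into their being tested.

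Some members rose in only 1 of the tests, which does not show that the genotypes differ. In D316Y the 7 were 9330175E14Rik, AI427809, Gm17586, Gm26637, Gm7160, Ptgs2os2 and Trp53cor1, and in WT the 1 was 2900076A07Rik. Of these, Gm17586, Ptgs2os2 and Trp53cor1 passed the D316Y filter through their LPS libraries alone. Trp53cor1, the p53-induced lincRNA-p21 beside Cdkn1a, rose by 1.19 (SE 0.42, limma adjusted p = 0.0365) in D316Y against a difference of 0.18 (SE 0.41, adjusted p = 0.763) in WT, and the D316Y call was lost without any 1 of 5 of its 6 libraries, at 0.97 to 1.30. 9330175E14Rik overlaps exons of Nlrc5, an interferon-induced regulator of MHC class I genes, on the other strand. It rose by 0.99 (SE 0.25, limma adjusted p = 0.00595) in D316Y, with Nlrc5 at 1.13 (SE 0.16), and differed by 0.47 (SE 0.25, adjusted p = 0.156) in WT, with Nlrc5 at 0.45 (SE 0.16).

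Among the lincRNAs that fell, Gm28875 on chromosome 12 (104925501 to 104926689, minus strand, 1 exon block) was, of those called in both genotypes, the most abundant per kilobase after 1810058I24Rik. It was at 5.0, 4.83 and 4.72 log2 CPM in unstimulated WT, at 5.51, 5.04 and 4.98 in unstimulated D316Y, and at 2.21, 1.83 and 2.06 in WT and 2.24, 1.31 and 2.49 in D316Y with LPS. The fall was -2.82 (SE 0.26, limma adjusted p = 1.95e-06) in WT and -3.17 (SE 0.26, adjusted p = 5.69e-07) in D316Y, with no overlap. Gm28875 lies 3244 bases from Syne3, which encodes a nuclear envelope protein, on the same strand.

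2610035D17Rik fell from between 3.14 and 3.49 log2 CPM to between 1.37 and 2.33, by -1.73 (SE 0.18, limma adjusted p = 5.72e-06) in WT and -1.35 (SE 0.18, adjusted p = 4.35e-05) in D316Y. AU020206 was at 2.29 to 2.43 in all 6 unstimulated libraries and at -0.52 to 0.97 with LPS, a fall of -2.23 (SE 0.27) in WT and -1.67 (SE 0.27) in D316Y. Larger falls were seen in members of few reads: Gm29291 fell by -3.95 (SE 0.60, limma adjusted p = 0.000163) in WT and -3.46 (SE 0.61, adjusted p = 0.000477) in D316Y, from between 59 and 230 reads to between 2 and 16. C030034L19Rik fell by -3.47 (SE 0.64) and -2.52 (SE 0.65), and 89.96% of its transcript matches Zfp704 at 100% identity, which it overlaps on the other strand. Gm29291 and C030034L19Rik passed the filter through their unstimulated libraries alone. The smallest called fall was that of the abundant 1810058I24Rik, -0.53 (SE 0.12, limma adjusted p = 0.00317) in WT and -0.50 (SE 0.12, adjusted p = 0.00434) in D316Y.

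**Figure D3:**
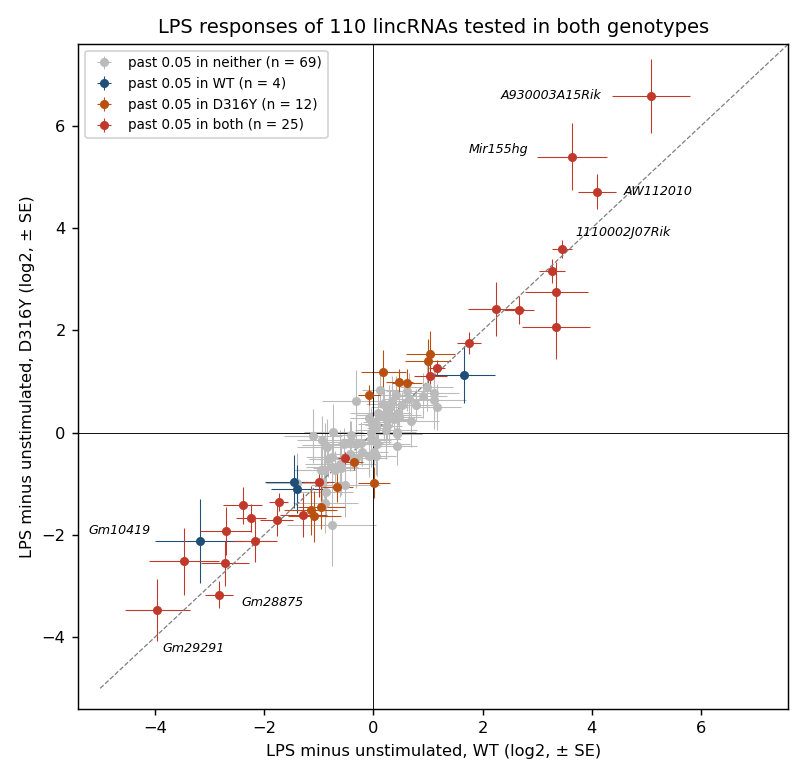
The log2 LPS response with its SE in WT (x axis) is plotted against that in D316Y (y axis) for the 110 lincRNAs tested in both, coloured by where they passed 0.05, with the dashed line marking equal responses. The 25 called in both lie at the upper right and lower left, 4 passed in WT alone and 12 in D316Y alone.

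Of the nuclear and conserved lncRNAs, 5 were members, and 1 fell in each genotype. Neat1, the scaffold of paraspeckles, was at 5.41, 7.24 and 7.56 log2 CPM in unstimulated WT and 4.93, 5.82 and 5.29 with LPS, and at 6.48, 7.87 and 7.57 in unstimulated D316Y and 6.15, 6.41 and 6.04 with LPS. The LPS difference was -1.39 (SE 0.47, limma adjusted p = 0.0332) in WT, where replicate 1 without LPS overlapped the LPS libraries, and -1.1 (SE 0.47, adjusted p = 0.0823) in D316Y. The WT call was lost without replicate 2 or 3 of unstimulated WT (-1.14 and -0.98) or replicate 1 or 3 of WT with LPS (-1.18 and -1.36), and in limma without trend and robust (adjusted p = 0.0527). Neat1 passed in D316Y too without its unstimulated replicate 1, at -1.52, and with the replicate block (limma adjusted p = 0.0129). Pvt1, the neighbour of Myc, fell by -1.52 (SE 0.49, limma adjusted p = 0.0238) in D316Y and was at -1.15 (SE 0.48, adjusted p = 0.0806) in WT. The D316Y call was kept in 9 of 13 alternatives and lost without replicate 2 or 3 of either D316Y group, at -1.32 to -1.56. Malat1 differed by 0.08 (SE 0.51, limma adjusted p = 0.914) in WT and 0.38 (SE 0.51, adjusted p = 0.594) in D316Y. Epb41l4aos did not pass in either, and Lncpint was tested in D316Y alone, where it did not.

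Of 6 host genes of small RNAs, Mir155hg rose in both genotypes and Mir17hg fell in D316Y, as above. The others did not pass. Snhg6 was at 3.01, 4.98 and 5.03 log2 CPM in unstimulated WT and 4.99, 5.92 and 5.43 with LPS, a difference of 1.11 (SE 0.46, limma adjusted p = 0.0742), and in D316Y the difference was 0.77 (SE 0.46, adjusted p = 0.207). Mir142hg, host of the blood-cell microRNA miR-142, differed by -0.04 (SE 0.49, limma adjusted p = 0.961) in WT, and Snhg12 and Snhg20 by 0.68 (SE 0.51) and 0.19 (SE 0.50).

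Without LPS, no lincRNA passed between D316Y and WT. Of 119 members tested 0 passed an adjusted p of 0.05, against 0.00868% of all genes, and 2 had an unadjusted p under 0.05, against 2.92%. The smallest p belonged to Gm26880, at 0.42, 0.06 and -0.30 log2 CPM in WT and -0.64, -1.24 and -1.25 in D316Y. All 3 D316Y libraries were below all 3 WT ones, with a difference of -1.1 (SE 0.39, limma adjusted p = 0.942). D930016D06Rik, Gm26581 and Gm26764 followed, at 1.38 (SE 0.60), 1.80 (SE 0.79) and 1.44 (SE 0.65), each with overlapping libraries and an adjusted p of 0.942 by limma. These passed the filter through their D316Y libraries alone, and Gm26880 through its WT libraries alone. The direction of each was built into its being tested. With the replicate number as a block the count was also 0.

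The members as a set leaned towards D316Y without LPS. Of all 150, with no filter, 119 had a higher mean in D316Y (79.3%, against 47.0% of all genes), with a median difference of 0.36 (log2) against -0.02. Antisense RNAs leaned the same way, with 118 of 162 higher, and so did 109 of 128 processed transcripts. The library medians of the members had an SD of 0.593 within a group. Within each replicate number, D316Y minus WT was 0.70, 0.29 and 0.32, so D316Y was the higher in 3 of 3. The labels do not say that the numbers pair libraries, and 3 pairs are too few for a test of pairs to pass 0.05. Without both replicate 1 libraries 115 members were higher (76.7%), with a median of 0.29. Without WT replicate 1 alone, which leaves the D316Y replicate 1 in, the median was 0.05.

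With LPS, again no lincRNA passed between the genotypes. Of 108 tested 0 passed, against 0.0442% of all genes. At an unadjusted p under 0.05, 25 were higher in D316Y (23.1%, against 3.47% of all genes) and 0 lower. Of these, E130102H24Rik, Gm26890, Gm21781, Gm26909, 3222401L13Rik, Gm38399, Gm26848, 2700038G22Rik and Ino80dos passed the filter through their D316Y libraries alone. A higher level in D316Y was built into their being tested. The libraries of the genotypes did not overlap for 21 (19.4%, against 12.5%). Several of the genes just named are among the 21, as are 6720427I07Rik and Pvt1, which passed the filter in the same way. Without WT replicate 2 with LPS, 3 members passed (Gm26916, Malat1 and Neat1), and with the replicate number as a block 1 passed (Gdap10). Same-numbered LPS libraries of the genotypes did not deviate together, with correlations of -0.096, 0.057 and -0.019.

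**Figure D4:**
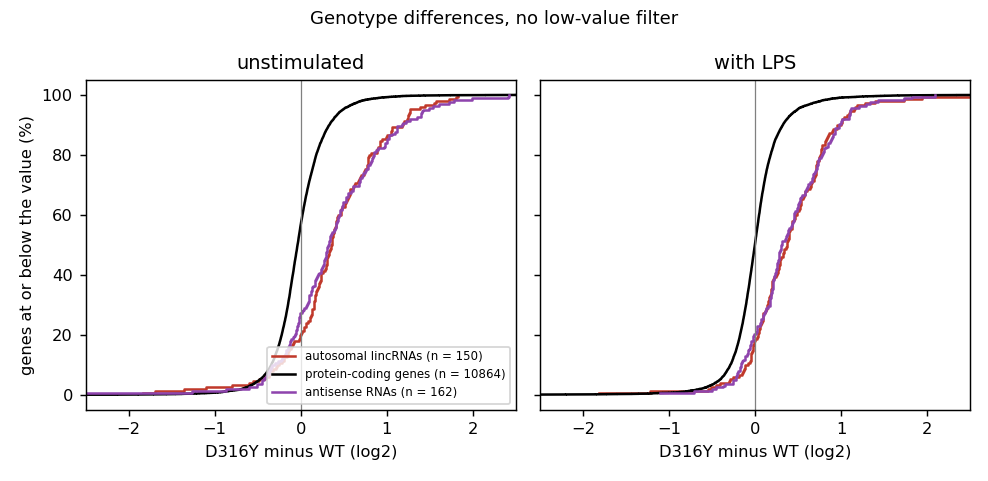
The curves give the percent of genes (y axis) at or below each D316Y minus WT difference (x axis, log2 of group means, no filter) for autosomal lincRNAs, antisense RNAs and protein-coding genes, without LPS (left) and with it (right). Both noncoding classes lie to the right of the protein-coding genes, with lincRNA medians of 0.36 and 0.37.

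Neat1 had the smallest p of the LPS genotype comparison. WT was at 4.93, 5.82 and 5.29 log2 CPM and D316Y at 6.15, 6.41 and 6.04, so every D316Y library was above every WT one. The difference was 0.86 (SE 0.20), with a limma adjusted p of 0.426 that ranged from 0.00282 to 0.999 over the alternatives. Gdap10 had 4.65, 3.92 and 4.94 in WT and 5.67, 4.99 and 5.88 in D316Y, a difference of 1.01 (SE 0.26, adjusted p = 0.426 by limma). E130102H24Rik differed by 1.39 (SE 0.36, limma adjusted p = 0.426) and Gm26916, which overlaps exons of Dleu2 on the other strand, by 0.89 (SE 0.24, adjusted p = 0.432). E130102H24Rik passed the filter through its D316Y libraries alone. Malat1 differed by 0.65 (SE 0.24, limma adjusted p = 0.659) with overlapping libraries, and Mir155hg by 1.16 (SE 0.34, adjusted p = 0.533) without overlap. None of these passed in the unblocked fit of all libraries, and Gdap10 passed with the block.

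The lean of the whole set with LPS was of the same size as without it. Of all 150 members, 123 had a higher mean in D316Y (82%, against 50% of all genes), with a median difference of 0.37 against 0.00029 for all genes. Antisense RNAs leaned the same way, with 129 of 162 higher (median 0.31), and so did 103 of 128 processed transcripts (median 0.32). The library medians of the lincRNAs were -0.41, -0.03 and -0.11 in WT and 0.27, -0.06 and 0.22 in D316Y, so the genotypes overlapped. The SD of these medians within a group was 0.192. Without WT replicate 1 with LPS the median difference was 0.19. Mitochondrially encoded genes took 0.658, 1.08 and 0.849% of the reads in WT and 1.10, 1.02 and 1.10% in D316Y. Their share was lowest in WT replicate 1, the library with the lowest lincRNA median, and its part in the lean was not tested.

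No lincRNA passed the test of the interaction, the LPS response in D316Y minus that in WT. Of 132 tested 0 passed, against 0.0% of all genes, and 2 had an unadjusted p under 0.05 (1.52%, against 2.11% of all genes). Gm26637 had the smallest p, with 3.14, 2.75 and 2.80 log2 CPM in unstimulated WT and 2.92, 2.83 and 2.69 with LPS, and 2.18, 2.24 and 2.81 in unstimulated D316Y and 3.39, 2.96 and 3.08 with LPS. It rose by 0.73 (SE 0.20, limma adjusted p = 0.00957) in D316Y and differed by -0.08 (SE 0.20, adjusted p = 0.773) in WT, with an interaction of 0.82 (SE 0.28, adjusted p = 0.999). Its exons overlap Eif2ak2, the interferon-induced kinase PKR, and Sult6b1 on the other strand, so reads of these genes cannot be told apart without strand. Gm9796, Ptgs2os2 and Mir155hg followed at -0.99 (SE 0.42), -1.37 (SE 0.69) and 1.76 (SE 0.92), all with an adjusted p of 0.999 by limma.

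The position of lincRNAs relative to protein-coding genes was not used to choose them. The nearest protein-coding gene in the table lay at a median of 7917 bases, and its body overlapped the lincRNA for 34 of the 150. For 116 it was under 50 kb away, and for 18 the genes were divergent with starts within 5 kb. Across the 106 pairs tested in WT, the LPS responses of the lincRNA and its neighbour had a Pearson's r of 0.227, against 0.223 between protein-coding genes and their own nearest protein-coding genes. Across 127 pairs in D316Y r was 0.331, against 0.244. For pairs under 50 kb it was 0.302 (84 pairs) in WT, against 0.246 between protein-coding genes, and 0.393 (100 pairs) in D316Y, against 0.272. These correlations are across pairs of genes of the same libraries, which are not independent replicates, and are given as a description.

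Single pairs went in the same or in opposite directions. Pvt1 and Myc, 47612 bases apart, were both lower with LPS in D316Y, Pvt1 by -1.52 and Myc, a transcription factor of cell growth, by -4.32 (SE 0.32, limma adjusted p = 2.72e-07). Gm28875 and Syne3 fell together, with Syne3 at -2.98 (SE 0.39) in WT and -3.37 (SE 0.39) in D316Y. Gm27167 and N4bp1, which encodes an endoribonuclease that restrains NF-kB signalling and lies 17195 bases away, rose together, with N4bp1 at 2.28 (SE 0.17) and 2.34 (SE 0.17). Ptgs2 rose by 3.22 (SE 0.41) in WT and 3.11 (SE 0.42) in D316Y beside Ptgs2os2. Gm14005 rose while Bcl2l11, 15772 bases away, fell by -1.07 (SE 0.17, limma adjusted p = 0.000208) in WT and -0.67 (SE 0.17, adjusted p = 0.0056) in D316Y. Lockd, beside the cell cycle inhibitor Cdkn1b, fell by -1.29 (SE 0.43) in WT, a call kept in 7 of 13 alternatives (largest adjusted p = 0.131 by limma), and by -1.62 (SE 0.43) in D316Y, kept in all 13, while Cdkn1b was at 0.32 (SE 0.18, limma adjusted p = 0.19) and 0.44 (SE 0.18, adjusted p = 0.0694). 1110002J07Rik rose with no called change in Reep3, its nearest neighbour at 88931 bases.

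**Figure D5:**
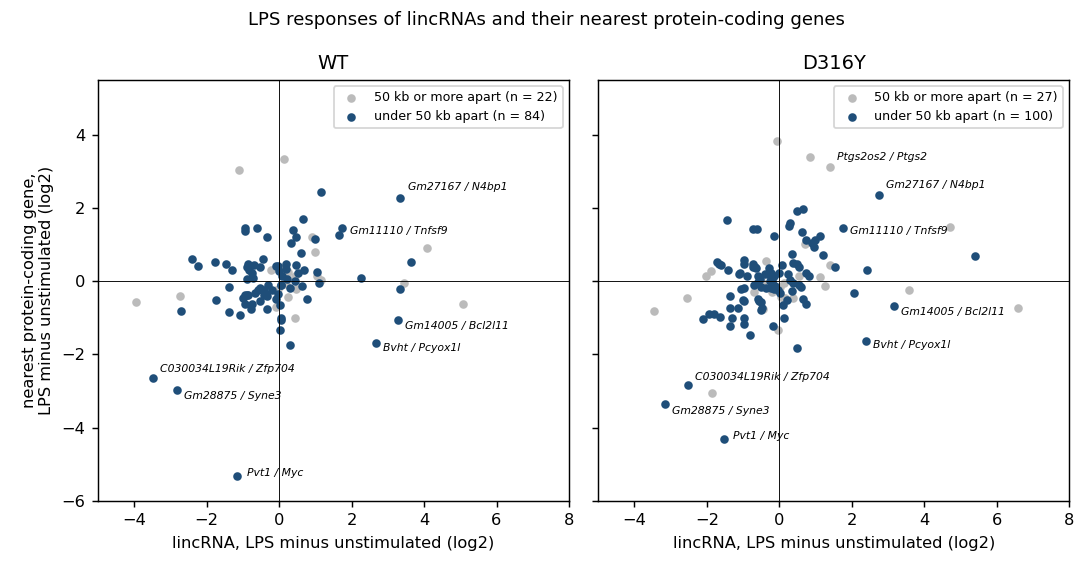
The log2 LPS response of each lincRNA (x axis) is plotted against that of its nearest protein-coding gene (y axis) in WT (left, 106 pairs) and D316Y (right, 127 pairs), with pairs under 50 kb in blue. Pvt1 with Myc and Gm28875 with Syne3 lie at the lower left, and Gm14005 with Bcl2l11 at the lower right.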

How the data were processed

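RNA of 12 macrophage libraries was sequenced. Per the submitters' processing notes the software included STAR 2.5.1a, featureCounts 1.4.6-p5, Subread, and bcl2fastq, limma and edgeR. The settings, genome build and use of strand were not given in the sources used. The authors deposited log2 CPM per gene and library, with their own log2 fold changes, p-values, −log10 p-values and score columns per comparison, per the file headers. By the authors' deposited table, 0 of the 150 members had an adjusted p under 0.05 between genotypes, with or without LPS.

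Reads were recovered from the steps of the log2 values. Values were tested with limma 3.58.1 in R 4.3.3 (trend and robust), after a filter keeping genes that averaged 0 log2 CPM or more in either compared group, with Benjamini-Hochberg adjustment over all genes tested. Genotypes were compared over 6 libraries, and LPS responses and the interaction in 1 fit of 12. The fits were tested on simulated data. Gene models came from GENCODE M21 and promoters from RefSeq.

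The members follow from gene type and chromosome alone, but the choice of lincRNAs as the subject, and the lists, were made with earlier results of these data known. Named genes were those of the lists, the largest called responses and the smallest p of each comparison. Same-numbered unstimulated libraries of both genotypes deviated together (correlations of 0.606, 0.527 and 0.154), and the other group pairs did not all do so. With 3 libraries per group these correlations depend on each other. The labels do not say that the numbers pair libraries, so the replicate block was run as an alternative only. Alternatives were the filter, scaling, weights, replicate block and leaving out libraries.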

Additional observations from a re-analysis of the deposited data

How the results depend on the processing

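The count of lincRNAs past 0.05 with LPS in WT was 29 and ranged from 24 to 48 when 1 library was left out, and was 57 without both unstimulated replicate 1 libraries, an alternative chosen after seeing the data. In D316Y it was 40, with a range of 32 to 41, and 62 without both. Between genotypes with LPS the count was 0, with a range of 0 to 3, and 1 with the replicate number as a block. With the replicate block the LPS counts were 36 in WT and 46 in D316Y, and those of the unstimulated genotype comparison and the interaction stayed at 0. The correlation with the nearest protein-coding gene was 0.302 in WT and 0.393 in D316Y for pairs under 50 kb, overlapping pairs included. Between protein-coding genes it was 0.246 and 0.272. Gm26637 in WT turned to 0.0397 without unstimulated WT replicate 1, alone or with that of D316Y. Trp53cor1 in WT turned to -0.03 without WT replicate 3 with LPS and to -0.16 without unstimulated WT replicate 2, and leaving out 1 library gave at most 0.49. The cause of these changes was not tested. Of 876 alternatives to 69 called gene results, 813 stayed past 0.05 in the same direction, 63 did not and 0 reversed. Depth limits the 42 members with under 100 reads in every library.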

Other observations

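In 4732419C18Rik, a member of very few reads, unstimulated WT libraries held 3, 2 and 2 reads and unstimulated D316Y libraries 2, 0 and 0. After LPS all 3 WT libraries held 0, and D316Y libraries held 4, 0 and 8. Apart from 2 D316Y libraries given LPS, these are at or under the floor of 3 reads, so no fold is given.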
